A study of Mus musculus with 24 samples.

Results

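The genes that mark the primitive endoderm were examined in nuclear RNA of 4 mouse embryonic stem (ES) cell lines. The group has 9 members: the transcription factors Gata4, Gata6, Sox17, Sox7 and Foxa2, the growth factor receptor Pdgfra, the endocytic receptors Lrp2 and Cubn, and the endocytic adaptor Dab2. They were chosen by name and matched by the symbol of their Ensembl identifier in both deposited count tables, where they are 9 of the 47937 genes measured by RNA-seq and 9 of the 49090 features (genes and repeat subfamilies) measured by MeRIP-seq. The question was whether lower RNA of laminin and collagen IV genes in the knockouts went together with lower RNA of genes that endoderm-like cells express.

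All lines have the 129/Sv x C57Bl6 background and were grown on gelatin in medium with Serum Replacement and LIF. WT26 is the wild type control of the *Mettl14* KO, which is 1 clone (A10) obtained from WT26 by CRISPR/Cas9 with guides against *Mettl3* and *Mettl14* transfected together. It carries a homozygous frameshift deletion in *Mettl14* and an intact targeted domain of *Mettl3*. RBC is a wild type line that carries BirA-V5 at Rosa26 and the Cre-ERT2 recombinase, and it is the control of the *Mettl3* KO, 1 clone (2c4d) that was derived from RBC and brought in from another study. Each knockout is thus a single clone, so that an effect of the mutation and a property of the clone cannot be told apart, and Cre-ERT2 and BirA-V5 are shared by RBC and *Mettl3* KO only. RNA-seq has 8 libraries and MeRIP-seq (immunoprecipitation of RNA with an antibody against m6A, beside the input RNA) has 16, with 2 biological replicates in each group. The p-values measure the spread between these replicates.

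In the blastocyst, cells of the inner cell mass become either epiblast, from which ES cells are derived, or primitive endoderm. FGF signals through ERK favour primitive endoderm and Gata6, whereas Nanog favours epiblast. Gata6 acts upstream of Pdgfra, Sox17 and Gata4, and Sox7 follows later. Of the descendants, parietal endoderm secretes laminin and collagen IV into a thick basement membrane, and visceral endoderm takes up nutrients through the receptors Lrp2 (megalin) and Cubn (cubilin) with the adaptor Dab2. The METTL3-METTL14 complex places m6A on RNA, most often at the letters GGAC followed by A, C or T.

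Total counts were between 11321459 and 13743181 in RNA-seq and between 9394163 and 28441282 in MeRIP-seq, and a normalized count below is a count divided by the size factor of its library. The ES cell marker Pou5f1 had 2070 to 3460 normalized counts in every RNA-seq library. Reads of the targeted genes were still counted, with a log2 fold change of -0.31 for Mettl14 in *Mettl14* KO and of -0.16 for Mettl3 in *Mettl3* KO, and a frameshift that leaves the transcript cannot be checked by a gene count. Whether reads were counted by strand in RNA-seq is not given in the sources used here. Without strand, reads of Gata6 cannot be told apart from those of 1010001N08Rik on the other strand, nor reads of Sox17 from Gm37587, of Pdgfra from Gm42802 and Gm42803, of Dab2 from Gm18888 and of Cubn from Gm13270. Pdgfra also holds Mir7025 on its own strand, and Gata4, Sox7, Foxa2 and Lrp2 share no exon with another gene. In bulk RNA, fewer endoderm-like cells and less of this RNA per cell cannot be told apart.

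The coding stretches below were printed because their genes stood at the ends of the m6A IP results. Sox7 was higher in IP than in input, and Cubn was lower. Sox17 was called higher with edgeR in *Mettl14* KO only, where its inputs had 0 and 0 reads. It passed the count filter only through its IP libraries, so that call is no independent support for enrichment. Each is the 120 bases of coding sequence within a single exon with the most matches to GGAC followed by A, C or T on the transcribed strand, 5′ to 3′, with the matches in capitals. The Sox7 stretch lies in exon 1 of 2 (GRCm38, chr14:63943756-63943875, plus strand), the Sox17 stretch lies in exon 5 of 5 (chr1:4492276-4492395, minus strand) and the Cubn stretch in exon 12 of 67 (chr2:13468742-13468861, minus strand).
Sox7: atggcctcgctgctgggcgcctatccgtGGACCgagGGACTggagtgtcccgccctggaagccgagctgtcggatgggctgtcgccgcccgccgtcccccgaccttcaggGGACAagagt
Sox17: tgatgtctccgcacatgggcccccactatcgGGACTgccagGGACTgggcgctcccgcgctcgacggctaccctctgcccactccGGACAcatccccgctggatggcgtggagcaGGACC
Cubn: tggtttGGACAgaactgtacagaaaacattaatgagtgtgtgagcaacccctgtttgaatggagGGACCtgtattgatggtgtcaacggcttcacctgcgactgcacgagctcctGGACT
Sox7 has 3 matches in its stretch, Sox17 has 4 and Cubn has 3. Over the whole transcript, Sox7 has 12 matches or 3.64 per kb, Sox17 has 13 or 4.16 per kb and Cubn has 48 or 4.26 per kb, beside a median of 3.52 per kb in 21951 protein-coding genes. The other members have from 2.47 per kb (Gata6) to 5 per kb (Gata4). Cubn, lower in IP, holds more of these letters per kb than Sox7, higher in IP. Coding sequence makes up 1140 of 3299 bases in Sox7, 1257 of 3127 in Sox17 and 10869 of 11262 in Cubn. These genes were picked from the IP results, and a link between these letters and the IP signal was not tested.

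Lrp2 was by far the most abundant member when levels were compared per kb of exon. It had 238 and 230 normalized counts per kb in the replicates of WT26 and 125 and 132 in *Mettl14* KO. RBC replicates had 207 and 201 and those of *Mettl3* KO had 102 and 101. No other member exceeded 15.0 normalized counts per kb in any RNA-seq library. In WT26 the members other than Lrp2 lay between 0 (Foxa2, replicate 2) and 5.05 (Pdgfra, replicate 1) per kb. Pdgfra (5.05 and 4.39) was the highest of them in both replicates. The order of Gata4, Gata6, Dab2 and Cubn was not resolved, since all lay between 1.85 and 2.79. In *Mettl14* KO, Pdgfra (15.0 and 14.3 per kb) and Cubn (13.5 and 14.0) came next after Lrp2, followed by Dab2 (10.5 and 8.62), Gata4 (7.95 and 8.23), Gata6 (6.77 and 6.89) and Sox7 (4.55 and 6.79). Pdgfra and Cubn were close to each other there, as were Gata4, Gata6 and Sox7.

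**Figure D1:**
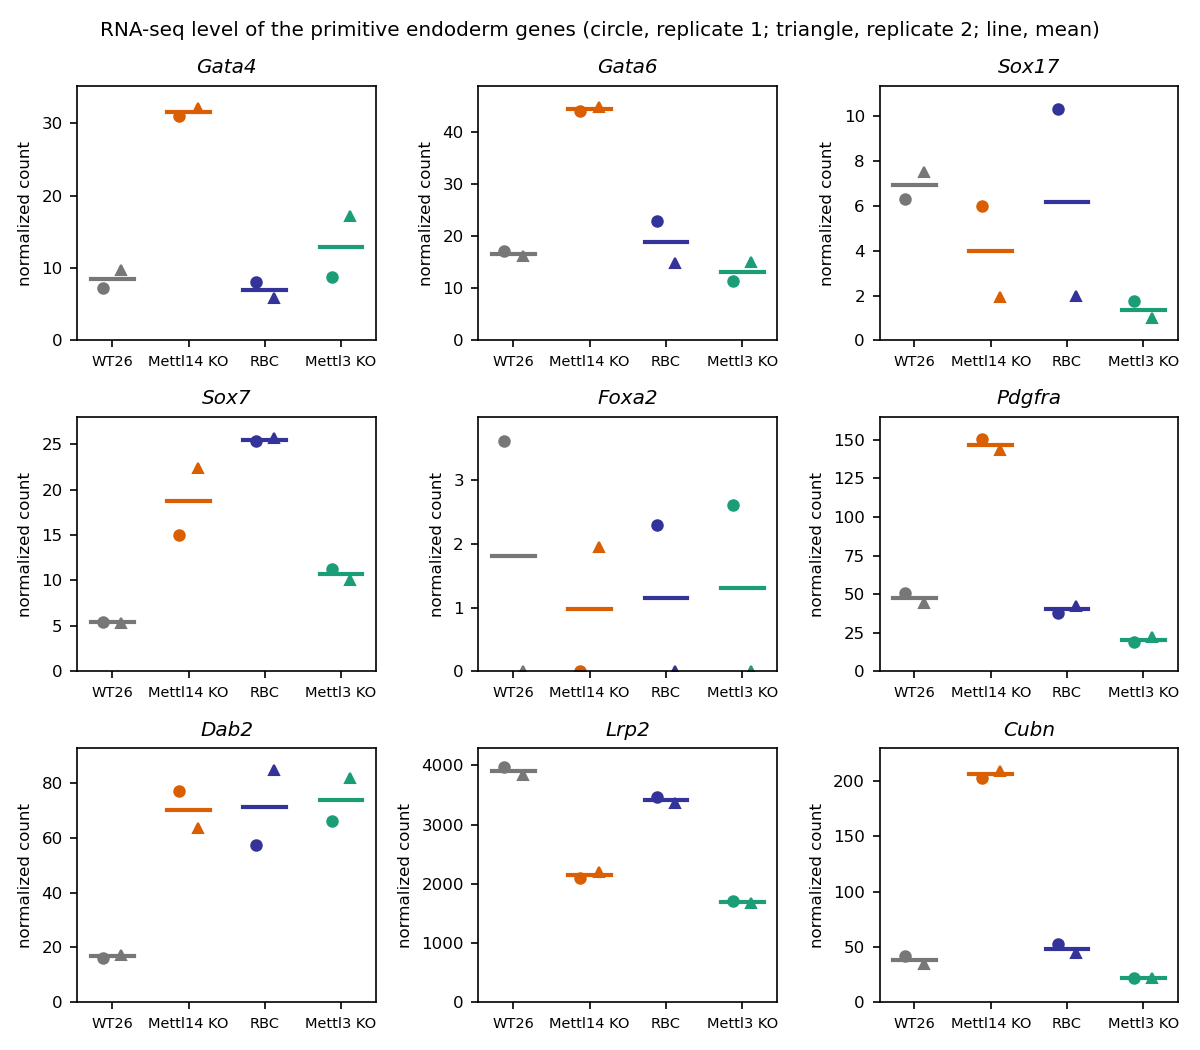
RNA-seq normalized counts (y axis, linear from 0, a separate scale for each gene) of the 9 members in the control lines WT26 and RBC and in both knockouts (x axis), with a circle for replicate 1, a triangle for replicate 2 and a line for the mean of both. Gata4, Gata6, Pdgfra and Cubn are highest in both Mettl14 KO libraries, Dab2 and Sox7 are lowest in both WT26 libraries, and Lrp2 is lower in both knockouts than in both controls.

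In *Mettl14* KO cells 6 of the 7 members that could be tested rose against WT26: Gata4, Gata6, Sox7, Pdgfra, Dab2 and Cubn. Calls required an edgeR adjusted p no larger than 0.05 together with a log2 fold change beyond 1 in either direction, and 7.95% of all 17021 genes tested were called higher and 6.57% lower. The median log2 fold change of the 7 members was 1.77, beside 0 over all genes tested. Sox17 and Foxa2 had too few reads for the filter, and Gata4 passed it only through its *Mettl14* KO libraries, the group where it is high. The filter thus favoured the share of 6 of 7. With no filter, the same 6 of all 9 members were called. The 6 calls held with DESeq2, with TMM and library size scaling and without any single replicate, while a limit of at least 10 counts in every library left Gata4 and Sox7 untested.

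Of the transcription factors, Gata4 had 7.23 and 9.66 normalized counts in WT26 and 31.0 and 32.1 in *Mettl14* KO. It rose 3.74-fold (log2 1.90, SE 0.379, adjusted p = 3.95e-04 in edgeR). Gata6, the factor at the head of the lineage, rose from 17.2 and 16.1 to 44.1 and 44.8, which is 2.65-fold (log2 1.41, SE 0.285, adjusted p = 4.71e-04). For both GATA factors the *Mettl14* KO libraries lay above the 6 other libraries of the series. How many of all genes showed that order was not counted. Sox7, an endoderm and endothelial factor, rose from 5.43 and 5.37 to 15.0 and 22.4 (log2 1.77, SE 0.436, adjusted p = 0.00239). Sox17 had 7 and 7 reads in WT26 and 6 and 2 in *Mettl14* KO, and Foxa2, which also marks definitive endoderm and node, had 4 and 0 against 0 and 2. These counts are too low to show a difference at this depth.

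Pdgfra, the PDGF receptor that early primitive endoderm cells carry, had 50.6 and 44.0 normalized counts in WT26 and 150.2 and 143.2 in *Mettl14* KO. The rise was 3.08-fold (log2 1.62, SE 0.169, adjusted p = 2.99e-07). Again both libraries lay above the 6 others of the series, an order not counted over all genes. Its ligand gene Pdgfa went the other way and fell from 589.6 and 578.7 to 197.3 and 214.3 (log2 -1.504, SE 0.0842, adjusted p = 1.09e-10).

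Among the genes of endocytosis, Cubn changed most. It had 41.6 and 34.4 normalized counts in WT26 and 202.3 and 209.5 in *Mettl14* KO, a 5.37-fold rise (log2 2.43, SE 0.166, adjusted p = 1.36e-09). Dab2, the adaptor that links these receptors to clathrin, rose from 16.3 and 17.2 to 77.1 and 63.3 (4.18-fold, log2 2.06, SE 0.274, adjusted p = 5.84e-06). Lrp2, the partner of Cubn, was lower, with 3972 and 3839 normalized counts in WT26 and 2094 and 2203 in *Mettl14* KO. Its log2 fold change of -0.86 (SE 0.0465, adjusted p = 7.02e-11) was far larger than the replicate spread and missed the limit of 1. Because Lrp2 holds most of the reads, the summed level of the 9 members was lower in *Mettl14* KO (2620 and 2722) than in WT26 (4120 and 3974). Without Lrp2, a sum taken after its values were seen, the other 8 members had 525.8 and 519.2 in *Mettl14* KO and 148.3 and 134.2 in WT26.

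In *Mettl3* KO cells 3 of the 7 tested members fell against RBC, Sox7, Cubn and Lrp2, and no member was called higher in edgeR (0 with DESeq2, and 0 at an unadjusted p under 0.05). Over all genes tested 6.15% were called higher and 7.43% lower, and the median log2 fold change was -0.97 over the members and -0.00164 over all genes tested.

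Sox7 had 25.3 and 25.6 normalized counts in RBC and 11.3 and 10.1 in *Mettl3* KO (log2 -1.24, SE 0.352, adjusted p = 0.00656), and DESeq2 gave an adjusted p of 0.0797. Cubn fell from 52.9 and 44.4 to 21.7 and 22.2 (log2 -1.14, SE 0.234, adjusted p = 5.23e-04). Lrp2 fell from 3462 and 3364 to 1704 and 1680 (log2 -1.01, SE 0.0472, adjusted p = 9.57e-12). The groups did not overlap for any of these genes, which were picked by their call. The share of all genes without overlap was not counted, so this adds no support. Lrp2 stood at the limit of 1 and lost its call without replicate 1 of RBC (-0.99) or without replicate 2 of *Mettl3* KO (-0.998). With scaling by library size, which moved the median of all genes by 0.151, Cubn (-0.98) and Lrp2 (-0.86) also missed the limit.

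Pdgfra was near that limit too. It had 37.9 and 42.4 normalized counts in RBC and 19.1 and 22.2 in *Mettl3* KO, a log2 fold change of -0.97 (SE 0.248, adjusted p = 0.00313), and it was called without replicate 1 of RBC (-1.04) or without replicate 2 of *Mettl3* KO (-1.07). The remaining members did not pass the test. Gata4 had 8.05 and 5.92 normalized counts in RBC and 8.70 and 17.1 in *Mettl3* KO (log2 0.86, SE 0.482, adjusted p = 0.143). Gata6 had 23.0 and 14.8 against 11.3 and 15.1 (log2 -0.50, SE 0.359, adjusted p = 0.249), and its groups overlapped. Dab2 had 57.5 and 84.8 against 66.1 and 81.6, with a log2 fold change of 0.03 (SE 0.206, adjusted p = 0.911). For Sox17, RBC had 9 and 2 reads and *Mettl3* KO 2 and 1, and for Foxa2, RBC had 2 and 0 and *Mettl3* KO 3 and 0.

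The change against the own control differed between the knockouts for 5 of the 7 tested members, tested as an interaction, where 14.0% of all genes were called in either direction. For each of the 5 the change was more positive in *Mettl14* KO: by a log2 difference of 3.56 for Cubn (SE 0.289, adjusted p = 3.04e-08 in edgeR), 3.01 for Sox7 (SE 0.56, adjusted p = 2.99e-04), 2.59 for Pdgfra (SE 0.301, adjusted p = 2.12e-06), 2.03 for Dab2 (SE 0.349, adjusted p = 1.39e-04) and 1.91 for Gata6 (SE 0.462, adjusted p = 0.00276). Sox7 and Cubn were called in both knockouts and in opposite directions. The difference was 1.04 for Gata4 (SE 0.651, adjusted p = 0.21) and 0.15 for Lrp2 (SE 0.0659, adjusted p = 0.076), so that these were not shown to differ.

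**Figure D2:**
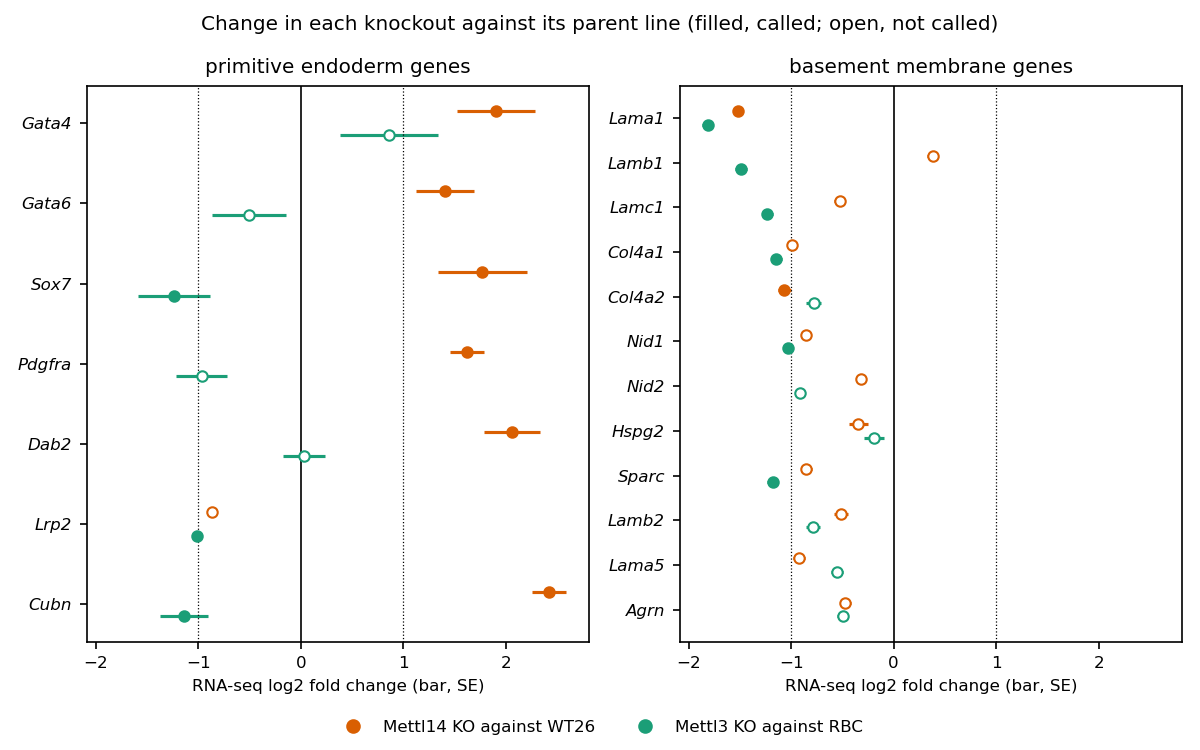
RNA-seq log2 fold change (x axis, bars are SE) of the 7 tested members and of the 12 basement membrane genes (y axis) in Mettl14 KO against WT26 and in Mettl3 KO against RBC, with filled points for called genes and dotted lines at the fold limit. In Mettl14 KO 6 members lie right of the limit while 11 of 12 basement membrane genes lie left of 0, and in Mettl3 KO 5 of 7 members and all 12 basement membrane genes lie left of 0.

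The control lines also differed from each other. Dab2 and Sox7 were higher in RBC than in WT26, by a log2 fold change of 2.10 (SE 0.276, adjusted p = 8.93e-06 in edgeR) and 2.21 (SE 0.414, adjusted p = 3.43e-04), where 4.86% of all genes were called higher and 4.12% lower. Lrp2 was slightly lower in RBC (-0.19, SE 0.0458, adjusted p = 0.00243), and Gata4, Gata6, Pdgfra and Cubn gave log2 fold changes from -0.27 to 0.34 with adjusted p-values from 0.228 to 0.754. The Dab2 level of *Mettl14* KO therefore lay within the range of the RBC libraries, and its Sox7 level below both of them. For these genes, the distance of *Mettl14* KO from WT26 was no larger than the distance between the controls, whereas for Gata4, Gata6, Pdgfra and Cubn it was the *Mettl14* KO that stood apart.

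Laminin and collagen IV genes were read beside the members. Of 12 basement membrane genes, all tested, 2 fell in *Mettl14* KO (Lama1 and Col4a2), where 6.57% of all genes were called lower. In *Mettl3* KO 6 of the 12 fell (Lama1, Lamb1, Lamc1, Col4a1, Nid1 and Sparc), where 7.43% of all genes were called lower. By the adjusted p alone, with no fold limit, 11 were lower in each knockout and 1 was higher in *Mettl14* KO. That looser limit was passed by 25.5% of all genes upward and 27.0% downward in *Mettl14* KO, and by 25.2% and 28.1% in *Mettl3* KO. The Nid1 call in *Mettl3* KO was lost without replicate 1 of RBC (-0.996), and it (-0.877) and the Col4a1 call (-0.992) were lost with library size scaling. Their median log2 fold changes were -0.69 (*Mettl14* KO) and -0.97 (*Mettl3* KO).

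Lama1, the alpha chain of embryonic laminin, had 11274 and 11271 normalized counts in WT26 against 3894 and 3960 in *Mettl14* KO, a fall of log2 -1.52 (SE 0.0496, adjusted p = 1.78e-13 in edgeR). It had 9795 and 9900 in RBC against 2829 and 2761 in *Mettl3* KO, a fall of log2 -1.82 (SE 0.0502, adjusted p = 8.4e-15). Col4a1, an alpha chain of collagen IV, had log2 fold changes of -0.99 and -1.14, and Col4a2 of -1.07 and -0.78, and these neighbours overlap on opposite strands. The laminin chains did not move alike in *Mettl14* KO, where Lamb1 was higher (1057 and 1083 against 1425 and 1360, log2 0.38, adjusted p = 2.01e-05) and Lamc1 lower (-0.53). In *Mettl3* KO both fell, Lamb1 with a log2 fold change of -1.49 and Lamc1 of -1.23. The collagen IV genes differed more between the control lines than in either knockout. RBC was below WT26 by a log2 fold change of -1.52 for Col4a1 (SE 0.0465, adjusted p = 4.48e-14) and -1.56 for Col4a2 (SE 0.0658, adjusted p = 5.22e-12), and above it by 1.20 for Lamb1 (SE 0.0554, adjusted p = 1.61e-11). For Lama1 the controls differed by -0.19, far less than each knockout from its control. Set beside these counts, 6 of 7 tested members (6 of 9 with no filter) rose in *Mettl14* KO, where 2 of 12 basement membrane genes fell. In *Mettl3* KO 3 of 7 members (3 of 9 with no filter) fell, where 6 of 12 basement membrane genes fell.

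Other genes of extraembryonic endoderm were read from a list of 40, of which 38 had a read and 24 could be tested. In *Mettl14* KO 6 of the 24 rose and 4 fell, where 7.95% of all genes were called higher and 6.57% lower. In *Mettl3* KO 1 rose and 6 fell, where 6.15% of all genes were called higher and 7.43% lower. The visceral endoderm genes Ttr and Cer1 had 0 reads in all 8 libraries, which allows up to 3 reads in each. Afp had 0 to 15 reads and Hnf4a 19 to 32. Hnf4a did not pass the test in either knockout (log2 -0.02 and 0.41, adjusted p = 0.97 and 0.24).

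Lefty1, an inhibitor of Nodal, had the largest called change upward of the list in each knockout. It had 29.8 and 22.5 normalized counts in WT26 and 218.3 and 230.9 in *Mettl14* KO (log2 3.08), while RBC had 125.3 and 150.8 against 1030 and 1106 for *Mettl3* KO (log2 2.94). Srgn, a proteoglycan core protein, followed the direction of Sox7 and Cubn, with a called log2 fold change of 2.79 in *Mettl14* KO (10.9 and 7.52 to 67.1 and 63.3) and a fall in *Mettl3* KO (35.6 and 33.5 to 13.0 and 11.1, log2 -1.499). The remaining rises in *Mettl14* KO were the hormone receptor Pth1r (log2 2.02), the water channel Aqp8 (1.36), the glypican Gpc3 (1.03) and the surface protein Cd24a (1.02). Pth1r and Aqp8 rest on 3 to 21 reads a library in WT26 and *Mettl14* KO and had adjusted p-values of 0.0528 and 0.205 with DESeq2, and each lost its call without some single replicates. Gpc3 lost its call without replicate 1 of WT26 (0.859), and Cd24a without replicate 2 of *Mettl14* KO (0.912) and with library size scaling (0.995).

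Fst, which binds activin, and Tfpi, an inhibitor of coagulation that parietal endoderm secretes, fell in each knockout. For Fst the log2 fold change was -2.21 (*Mettl14* KO) and -1.13 (*Mettl3* KO), and for Tfpi -1.263 and -2.19. The Fst call in *Mettl3* KO was lost without its replicate 1 (-0.951) and with library size scaling (-0.974). The protease inhibitor Spink1 had 47 and 31 reads in WT26 and 1 and 1 in *Mettl14* KO, and its log2 fold change in *Mettl3* KO was -2.46, a called fall. Krt19, a keratin of simple epithelia, had 10 and 8 reads in WT26 and 2 and 2 in *Mettl14* KO, while RBC had 14 and 18 reads against 5 and 6 for *Mettl3* KO. It was called lower in both knockouts with edgeR, with adjusted p-values of 0.0775 and 0.0743 with DESeq2 and a call that was lost without some single replicates in each. Rhox5, a homeobox gene, fell in *Mettl3* KO (log2 -1.79) and had a log2 fold change of 0.60 in *Mettl14* KO, within the fold limit.

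Genes of the FGF and PDGF signals gave 2 rises and 6 falls in *Mettl14* KO and 1 rise and 5 falls in *Mettl3* KO, of 23 listed and tested. Fgfr2, an FGF receptor of primitive endoderm, rose in both, by 1.28 and 1.98 on the log2 scale. It was also called higher in RBC than in WT26. Its annotated exons overlap those of Ctbp2 on the same strand, so reads there cannot be told apart even by strand. Fgf4, the FGF of the epiblast, was lower in both by the adjusted p (-0.55 and -0.61). The ERK feedback genes Dusp6 (-1.65 and -1.69) and Spry2 (-1.257 and -1.16) fell in both, and Spry4 fell in *Mettl14* KO (-1.21, with -0.53 in *Mettl3* KO), whereas Dusp4 rose in *Mettl14* KO (1.23). Fgfr4 fell in both (-1.01 and -1.51), Fgfr3 in *Mettl3* KO (-1.53) and the ERK target Etv4 in *Mettl3* KO (-1.11, and -0.961 with library size scaling, within the limit). The Fgfr4 call in *Mettl14* KO was lost without its replicate 1 (-0.872) or replicate 1 of WT26 (-0.995). Besides Pdgfa, the ligand gene Pdgfc fell in *Mettl14* KO (-1.74), and in *Mettl3* KO these ligand genes gave 0.05 and 0.32 (adjusted p = 0.64 and 0.069). Nanog, which opposes Gata6, was lower in *Mettl14* KO (-0.79, adjusted p = 9.98e-10) and in *Mettl3* KO (-0.21, adjusted p = 0.00211), both within the fold limit.

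Markers of other cell types that such cultures could hold moved as follows, and their part in the members' changes was not tested. Of 15 ES cell genes, 14 were lower in *Mettl14* KO and 12 in *Mettl3* KO by the adjusted p alone, which 27.0% and 28.1% of all genes also were, with summed normalized counts of 44894 and 45649 (WT26), 30744 and 30951 (*Mettl14* KO), 40175 and 40265 (RBC) and 25409 and 25888 (*Mettl3* KO). The calls were Lin28a in both (-1.02 and -1.03) and Tdgf1 (-1.32) and Dppa5a (-2.03) in *Mettl3* KO, all lower, and Dppa3 in both, higher, with 3 and 2 reads in WT26 against 14 and 19 and 2 and 2 in RBC against 15 and 16. Lin28a lost its call in *Mettl14* KO without replicate 2 (-0.939), and in *Mettl3* KO without its replicate 1 (-0.995), without replicate 2 of RBC (-0.979) and with library size scaling (-0.874). Of 10 trophoblast genes 3 could be tested, and 0 were called in either knockout with edgeR or DESeq2 (1 at an unadjusted p under 0.05 in each). By the edgeR adjusted p alone, 1 was higher in each knockout, as were 25.5% (*Mettl14* KO) and 25.2% (*Mettl3* KO) of all genes. Summed trophoblast levels were 255.0 to 271.6 in WT26, 343.9 to 350.5 in *Mettl14* KO, 295.4 to 295.8 in RBC and 359.1 to 387.8 in *Mettl3* KO. Most of it was Tfap2c, and Prl3d1 had 0 reads in every library. Of 10 genes of mesoderm and definitive endoderm, a list that shares Sox17 and Foxa2 with the members, 3 could be tested and 0 were called with edgeR or DESeq2 (0 at an unadjusted p under 0.05), with sums of 66.9 to 68.7, 80.1 to 81.8, 52.2 to 67.8 and 54.8 to 58.4 in the same order of lines. Of 7 neurectoderm genes Pax6 rose in both (1.96 and 1.21), with sums of 1716 to 1760, 1197 to 1370, 2349 to 2388 and 1782 to 1797. Of 9 fibroblast genes Thy1 fell in both (-2.03 and -2.62) and Col1a2 rose in *Mettl3* KO (2.26, from 6 and 3 reads to 26 and 24), with sums of 82.3 to 84.8, 27.3 to 40.1, 103.5 to 116.3 and 45.2 to 62.4, and Dcn and Prrx1 at 0 reads in every library.

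In the inputs of MeRIP-seq, which measure the same lines a second time, no member was called with edgeR in *Mettl14* KO against WT26, in *Mettl3* KO against RBC or in RBC against WT26. At an unadjusted p under 0.05 there were 2, 1 and 3 members, beside 2389, 2638 and 1838 of all 22621 features, and DESeq2 called 1, 0 and 0 members. Few features were called at all: 0.398%, 0.752% and 0.584% of 22621. The members with enough reads kept the direction that they had in RNA-seq in *Mettl14* KO. The input log2 fold changes were 1.046 for Cubn, 1.07 for Dab2, 1.02 for Sox7, 0.58 for Gata4, 0.46 for Pdgfra, 0.21 for Gata6 and -1.12 for Lrp2, with adjusted p-values from 0.0551 (Lrp2) to 0.988 (Gata6). The member that DESeq2 called was Lrp2 (-1.12, adjusted p = 7.94e-04). A fit of the inputs alone that took replicate numbers as a replicate block called 3 members in *Mettl14* KO and 1, Dab2, in RBC against WT26. The 3 were Cubn (1.29, adjusted p = 0.0286), Dab2 (1.14, adjusted p = 0.0289) and Lrp2 (-1.13, adjusted p = 3.82e-04). Far more features were called in this fit: of 20341, 479 higher and 563 lower in *Mettl14* KO, and 325 and 348 in RBC against WT26. Same-numbered inputs of different lines deviated together, with correlations of 0.251 to 0.452, but no label says that a number marks a shared batch. In *Mettl3* KO the input log2 fold changes of the edgeR fit without a block were -1.34 for Cubn, -1.29 for Sox7, -0.90 for Pdgfra, -0.63 for Lrp2, -0.34 for Gata6, 0.22 for Gata4 and 0.51 for Dab2, with adjusted p-values from 0.268 to 0.965.

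Replicate 2 of WT26 stood apart from replicate 1 for some members in MeRIP-seq. Its input had 28.8 normalized counts of Gata4 where replicate 1 had 8.64, 42.4 against 8.64 of Gata6, 92.4 against 30.6 of Pdgfra, and 128.7 against 26.7 of Cubn, which is 3.33, 4.91, 3.01 and 4.82 times as much. The IP of the same replicate was higher too, by 2.09 times for Gata4, 4.74 times for Gata6, 5.92 times for Pdgfra and 2.78 times for Cubn. In the whole table, 1.35% of features with at least 10 counts in every library were over 2-fold higher in the input of replicate 2 than in that of replicate 1, and 5.96% in the IP, beside 1.59% and 8.07% for the replicates of *Mettl14* KO. Gata4, Gata6 and Cubn had fewer than 10 counts in some libraries and are not among these features. These shares are thus of better counted features, which carry less counting error. Replicate 2 of WT26 was at or just above the higher *Mettl14* KO input for Gata4 (28.7 and 23.2) and Pdgfra (89.7 and 73.7), above both for Gata6 (26.0 and 29.5) and below both for Cubn (132.7 and 181.0).

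The remaining members with enough reads differed less. Dab2 (22.8 and 36.3), Lrp2 (2300 and 2816) and Sox7 (9.43 and 7.57) were closer between the WT26 inputs, as was the summed level of the basement membrane genes (52087 and 52244). Lefty1 had 19.6 and 13.6 in the WT26 inputs against 114.8 and 119.96 in *Mettl14* KO, Spink1 15.7 and 15.1 against 0 and 0, and Fst 74.6 and 59.1 against 8.97 and 25.3. These genes were chosen after their values were seen, from those called in RNA-seq between the same lines. Their separation here is therefore no test of what set apart replicate 2 of WT26. Without this replicate the input log2 fold changes of Gata4, Gata6 and Pdgfra in *Mettl14* KO kept their sign, and without replicate 1 they turned to -0.13, -0.63 and -0.17. In RNA-seq, where the WT26 replicates were close, *Mettl14* KO and WT26 differed 3.74-fold for Gata4, 2.65-fold for Gata6, 3.08-fold for Pdgfra and 5.37-fold for Cubn. The ratio between the WT26 inputs was thus lower than this for Gata4, Pdgfra and Cubn and higher for Gata6. The origin of this difference was not tested.

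**Figure D3:**
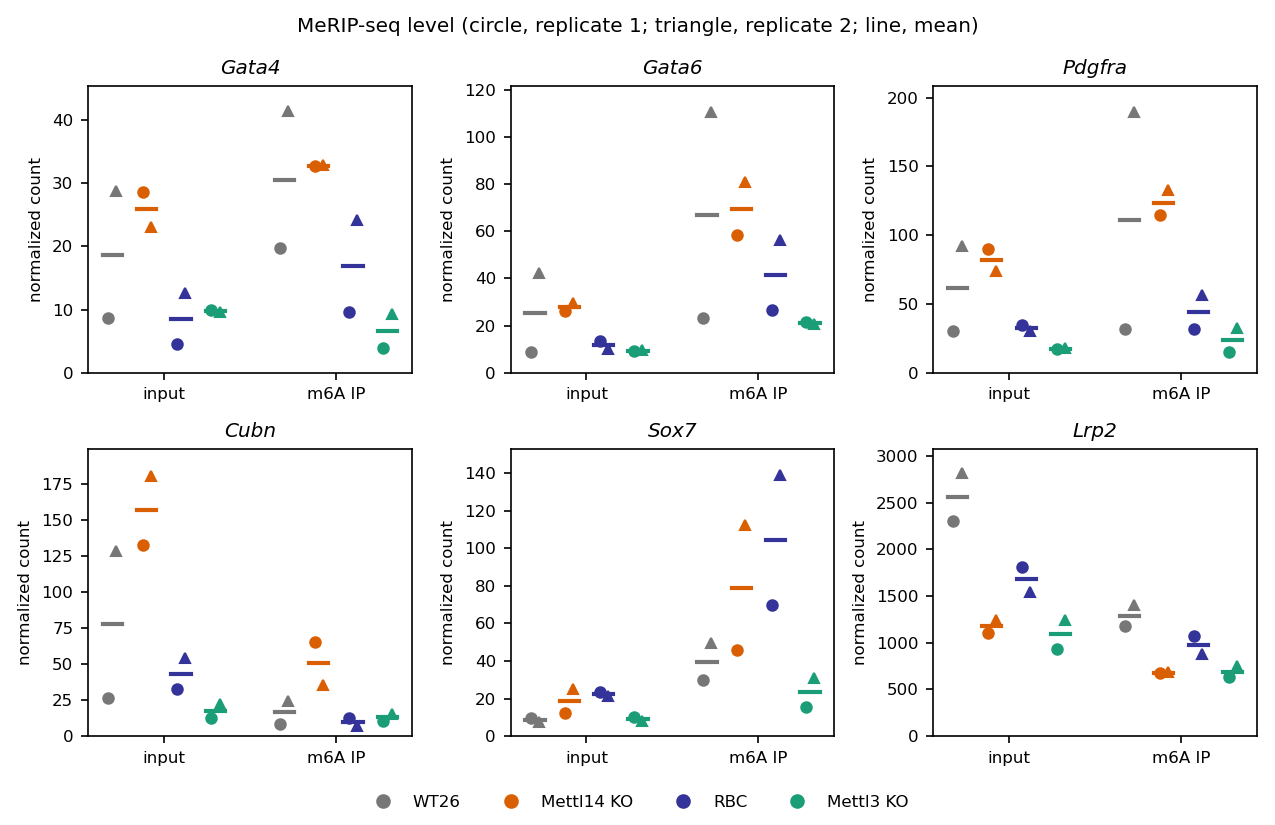
MeRIP-seq normalized counts (y axis, linear from 0, a separate scale for each gene) in the input and m6A IP libraries (x axis) of the control lines WT26 and RBC and of both knockouts for 6 members, with a circle for replicate 1, a triangle for replicate 2 and a line for the mean. Gata4, Gata6, Pdgfra and Cubn are well above the circle in the triangle of WT26, in input and in IP, while Lrp2 and Sox7 inputs are close.

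Sox7 was the member with the clearest m6A IP signal. Its inputs had 9.43 and 7.57 and its IPs 29.7 and 49.5 normalized counts in WT26. The other lines had, in input against IP, 23.6 and 21.5 against 69.9 and 138.8 in RBC, 12.6 and 25.3 against 45.9 and 112.2 in *Mettl14* KO, and 9.99 and 8.03 against 15.6 and 31.2 in *Mettl3* KO. IP was above input in every replicate. The log2 enrichment was 2.17 in WT26 (SE 0.595, adjusted p = 0.0164 in edgeR), 2.19 in RBC (SE 0.536, adjusted p = 0.0132), 2.12 in *Mettl14* KO (SE 0.566, adjusted p = 0.0187) and 1.31 in *Mettl3* KO (SE 0.617, adjusted p = 0.198). Enrichment was called past the same limits, which 14.5% of features were in WT26, 13.4% in RBC, 11.9% in *Mettl14* KO and 2.54% in *Mettl3* KO.

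Sox17 was called with edgeR in *Mettl14* KO, where the inputs had 0 and 0 reads and the IPs 18 and 17, and DESeq2 did not call it. No input library of any line had more than 5 Sox17 reads. It therefore passed the count filter only through the IP libraries, where it is high, and the call is no independent support for enrichment. Set against 3 counts in each input library, IP was at least 3.89-fold higher than input. In WT26 Sox17 had 2 and 4 input reads and 14 and 21 IP reads, in RBC 1 and 5 against 4 and 10, and in *Mettl3* KO 1 and 0 against 2 and 5. Both calls in *Mettl14* KO were lost without either replicate, as were the Sox7 call in WT26 without either replicate and that in RBC without replicate 2. Without replicate 2 of its line, 0 of all features were called enriched in WT26, RBC or *Mettl14* KO. Foxa2 had 0 to 3 input reads and 0 to 12 IP reads in a library and gives no ratio.

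Gata6 was above input in every line, with log2 enrichments of 1.47 in WT26 (SE 0.707, adjusted p = 0.119), 1.77 in RBC (SE 0.763, adjusted p = 0.0906), 1.32 in *Mettl14* KO (SE 0.708, adjusted p = 0.171) and 1.17 in *Mettl3* KO (SE 0.812, adjusted p = 0.379). Input and IP of a replicate come from the same RNA, and with this pairing as a block Gata6 was called in WT26 (1.40, adjusted p = 0.0263), RBC (1.69, adjusted p = 0.0242) and *Mettl14* KO (1.29, adjusted p = 0.0394). Gata4, Pdgfra and Dab2 did not pass in any line, with log2 enrichments from -0.63 to 0.94 for Gata4, 0.40 to 0.88 for Pdgfra and -0.87 to -0.04 for Dab2. In *Mettl3* KO no member was enriched with edgeR or DESeq2, and 2 members, both lower in IP, had an unadjusted p under 0.05.

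The endocytic receptors were lower in IP than in input. Cubn had 26.7 and 128.7 normalized counts in input and 8.75 and 24.3 in IP in WT26, and 32.6 and 54.3 against 12.8 and 7.04 in RBC. The log2 ratio was -2.23 in WT26 (SE 0.678, adjusted p = 0.0241) and -2.06 in RBC (SE 0.707, adjusted p = 0.0435). In *Mettl14* KO it was -1.60 (SE 0.627, adjusted p = 0.0728) and in *Mettl3* KO -0.41 (SE 0.756, adjusted p = 0.766). Of all features, 13.5%, 11.1%, 9.91% and 1.86% were lower in IP past both limits in WT26, in RBC, in *Mettl14* KO and in *Mettl3* KO respectively. Lrp2 had log2 ratios of -0.99, -0.78, -0.79 and -0.66 in the same lines, with adjusted p-values of 0.00933, 0.0252, 0.0259 and 0.099, and none reached the fold limit.

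**Figure D4:**
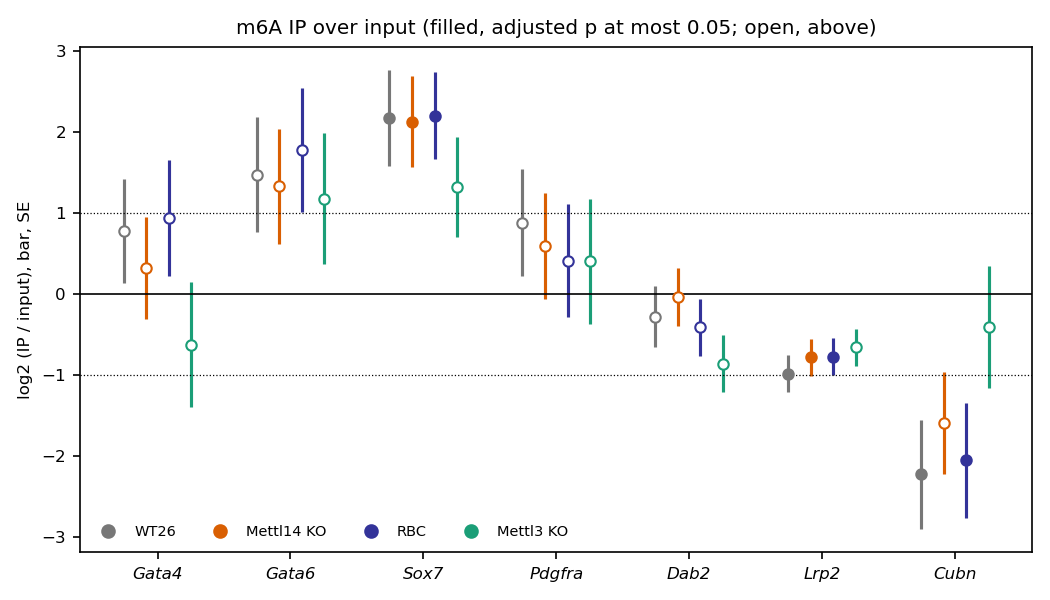
Log2 ratio of m6A IP to input (y axis, bars are SE) of 7 members (x axis) in the control lines WT26 and RBC and in both knockouts, with filled points where the adjusted p was 0.05 or less and dotted lines at the fold limit. Sox7 is above 2 in WT26, Mettl14 KO and RBC, Gata6 is above 1 in all lines with open points, and Lrp2 and Cubn are below 0.

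The change of IP over input between knockout and control was not detectable for any member. With edgeR 0% of the 22621 features were called in *Mettl14* KO against WT26 and 0% in *Mettl3* KO against RBC, with 126 and 787 features at an unadjusted p under 0.05, and DESeq2 called 1 and 0. None of the 9 members had an unadjusted p under 0.05 in either comparison of that edgeR fit. With input and IP paired as a block, 1 member did in each, beside 155 and 928 of all features, and with no filter also 1 in each. No member was called in these settings. The error was wide even for Sox7, whose log2 ratio changed by -0.04 (SE 0.71) in *Mettl14* KO and by -0.88 (SE 0.829) in *Mettl3* KO. For Lrp2, with 502 or more reads in every MeRIP-seq library, the SE was 0.322 in both comparisons. A loss of m6A on the members was not detectable at this depth and replicate spread. The size factors also come from the counted features themselves and not from an added reference RNA. A loss shared by many features could therefore be partly scaled away, and these fits cannot decide whether one occurred.

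The genes with the RNA-seq pattern closest to a member were found for the 4 members whose mean normalized count reached 50, as the smallest root mean square difference of log2(normalized count + 1) from the gene's own mean over the 8 libraries, among 11879 genes. For Pdgfra they were BC022960 (0.28) and Cubn (0.32), and for Cubn they were Slc5a4b (0.14) and Pdgfra (0.32), so that these members were close to each other. For Dab2 they were Piwil4 (0.20) and Gpc1 (0.23), and for Lrp2 Jam2 (0.05) and Fblim1 (0.05). The differences are on the log2 scale, and abundant genes such as Lrp2, Jam2 (mean of 3292 normalized counts) and Fblim1 (1260) carry less counting error and so come closer.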

How the data were processed

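Nuclear RNA of 4 lines was measured by RNA-seq (8 libraries) and MeRIP-seq (16 libraries, input and m6A IP). The authors deposited raw counts for both, per gene in RNA-seq and per gene and repeat subfamily in MeRIP-seq. Per the labels' processing notes, reads were trimmed with cutadapt 1.8.1 and aligned to GRCm38 with STAR 2.6.0c. By the study's methods, 3 MeRIP reactions were combined per replicate and MeRIP-seq reads were counted with TEtranscripts. The RNA-seq counting tool is not given in the sources used here. Of 47937 gene identifiers 47224 had a symbol, and 0 columns lacked a sample.

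The quasi-likelihood test of edgeR 4.0.16 was run under R 4.3.3 (DESeq2 1.42.0 size factors, filterByExpr, Benjamini-Hochberg adjustment over 17021 genes or 22621 features), with all 8 or 16 libraries in 1 fit. SE is the log2 fold change over the root of F. The limits were an adjusted p of 0.05 and a log2 fold change of 1. In RNA-seq 7 members and in MeRIP-seq 9 passed the filter. Per-kb levels used the GENCODE exon length on GRCm38. Motifs were counted in the transcript with the longest coding sequence.

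The 9 members and all lists were chosen with earlier results of these data known. All members were named, genes of other lists where called in a knockout by RNA-seq (and others in support, chosen after their values were seen), and for each member of at least 50 mean normalized counts the 2 closest patterns.

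Same-numbered input and IP of a line are paired by the MeRIP protocol, and their deviations correlated by 0.195 to 0.28 over 13662 features. The alternatives were DESeq2's test, TMM, library size, no filter, a minimum of 10 counts per library, calls by adjusted p without a fold limit, a fit restricted to the lines of a comparison, size factors from genes, replicate blocks and leaving out each replicate. Scripts were tested on simulated data.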

Additional observations from a re-analysis of the deposited data

Results flagged for a closer look

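For 5 members the change against the own control line differed between *Mettl14* KO and *Mettl3* KO in the interaction test of edgeR. The log2 difference was 3.56 for Cubn, 3.01 for Sox7, 2.59 for Pdgfra, 2.03 for Dab2 and 1.91 for Gata6. The Cubn changes behind it were 2.43 for *Mettl14* KO and -1.14 for *Mettl3* KO. In the same order the Sox7 difference from 1.77 and -1.24, the Pdgfra difference from 1.62 and -0.97, the Dab2 difference from 2.06 and 0.03, and the Gata6 difference from 1.41 and -0.50. All 5 kept their call without any single replicate. Dab2 and Sox7 also differed between the control lines, by 2.10 and 2.21, and the part of the control lines in their differences was not tested.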

How the results depend on the processing

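Over all settings, 1245 of the recomputed values for single genes kept direction and call, 40 lost and 17 gained a call, and 14 changed sign. Scaling by library size moved the median of all genes in RNA-seq by 0.151 in *Mettl3* KO, -0.155 in RBC against WT26 and -0.178 for the difference between knockouts. It changed the calls over all genes from 1047 higher and 1265 lower to 1459 and 953, from 827 and 701 to 666 and 964, and from 1374 and 1005 to 1091 and 1511. In IP over input it moved that median by 0.368 to 0.492. With this scaling 1 member was called in *Mettl3* KO instead of 3, 2 in IP over input of WT26 and of RBC instead of 1, Lrp2 had -0.0259 for the difference between knockouts, and Dab2 had 0.136, 0.0225 and 0.38 for IP over input in WT26, RBC and *Mettl14* KO, each with the opposite sign.

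With at least 10 counts in every library, RBC against WT26 kept 1 call of 2 and IP over input had 0 in WT26, RBC and *Mettl14* KO, since Sox7 was no longer tested. DESeq2 called 1 in IP over input of *Mettl14* KO instead of 2 and 1 in its input (none before), TMM and no filter also 1 there. No filter gave 2 in IP over input of WT26 and of RBC, only the libraries compared 2 in RBC, and the adjusted p alone 3 in each, of which 2 were lower in IP. The cause of these was not tested.

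Leaving out replicates gave 0 calls in IP over input of WT26 in both cases, 0 to 1 in RBC and 0 in *Mettl14* KO. The log2 values that changed sign without a replicate ranged as follows: Dab2 in *Mettl3* KO by RNA-seq (-0.209 to 0.352), Gata6 in RBC against WT26 by RNA-seq (-0.172 to 0.461), Gata4 in the input of *Mettl14* KO (-0.131 to 1.59), Gata6 there (-0.625 to 1.65), Pdgfra there (-0.17 to 1.42), Gata4 in the input of *Mettl3* KO (-0.352 to 1.11), Dab2 in IP over input of *Mettl14* KO (-0.205 to 0.089), Pdgfra in that ratio of RBC (-0.141 to 0.894), Pdgfra in that ratio of *Mettl3* KO (-0.206 to 0.861).

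For RNA-seq the replicate block changed no call of a member (6, 3, 2 and 5 in the 4 comparisons). No label says that replicate numbers pair the lines. Same-numbered libraries did not deviate together in *Mettl14* KO and its control (correlation of -0.0713), but they did in *Mettl3* KO and its control (0.453). With WT26 numbers crossed, chosen after seeing the data because WT26 and RBC correlated by -0.172, 2 members were called in RBC against WT26. With the replicate block over the inputs alone, whose same-numbered libraries correlated by 0.251 to 0.452 across lines (IPs by 0.598 to 0.806), 3 members were called in *Mettl14* KO and 1 in RBC against WT26. Of all 20341 features in that fit, 479 were called higher and 563 lower in *Mettl14* KO, and 325 and 348 in RBC against WT26. The input-IP replicate block called 2 in WT26, 2 in RBC and 3 in *Mettl14* KO, with Gata6 added in each. Foxa2 and Sox17 had too few reads in RNA-seq to be tested.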
